A study of Brassica napus with 6 samples.

Results

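The JAZ genes described here are all genes of the deposited Brassica napus table whose best Arabidopsis match is JAZ1 (AT1G19180), JAZ2 (AT1G74950), JAZ3 (AT3G17860), JAZ5 (AT1G17380), JAZ6 (AT1G72450), JAZ7 (AT2G34600), JAZ8 (AT1G30135), JAZ9 (AT1G70700), JAZ10 (AT5G13220) or JAZ12 (AT5G20900). They number 55 of 145279 genes and were chosen by that match alone, not by their levels. Oilseed rape carries A and C subgenomes from its diploid parents, and each of the 10 Arabidopsis genes has 4 to 7 matching copies here, 28 with an A and 27 with a C identifier. Levels were measured by sequencing poly-A RNA from single leaves, taken when very young as the third leaf of plants grown in 16 h of light and 8 h of darkness. The hairy line DH6-47, with about 600 trichomes per leaf, was compared with the glabrous line DH6-110. Both are doubled haploid lines described as near-isogenic, from Quantum/LG3260 and CN113136 as original parents, and each line is a single genotype. Columns for replicates 1 and 3 of each line were used, so 2 hairy leaves were set against 2 glabrous leaves; the leaves labelled replicate 2 were not analysed here.

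JAZ proteins repress jasmonate responses. They hold a TIFY (ZIM) domain and a Jas motif, bind MYC2 and related transcription factors, and recruit the corepressor TOPLESS directly or through the adaptor NINJA. When jasmonoyl-isoleucine accumulates, it joins JAZ proteins to the F-box receptor COI1 and they are degraded, which frees the transcription factors. JAZ genes are themselves transcribed in response to jasmonate, so they serve as negative feedback. In Arabidopsis, JAZ proteins also bind GL1, GL3 and EGL3 of the complex that starts trichomes, and jasmonate raises trichome number there.

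Values were TPM, a transcript abundance scaled for transcript length and for the total of each leaf, so levels can be compared between genes. The sequencing depth behind them is unknown. A copy was tested where it reached 1 TPM in at least 2 leaves, which 42 of the 55 JAZ copies did, with limma on log2(TPM + 1) fitted over all 44247 such genes. A difference was called at a Benjamini-Hochberg adjusted p under 0.05 over all of them. Nothing in the labels says more of a replicate than that it is 1 leaf. The p-values thus rest on the spread between 2 leaves per line, with each gene's variance drawn towards a trend over all tested genes. The log2(TPM + 1) scale understates differences of copies near 0. Reads from near-identical copies may have been placed on either. The leaves carried leaf transcripts: the summed level of 5 mesophyll markers was 2889 and 3446 TPM in the hairy and 4372 and 6348 TPM in the glabrous leaves, although RBCS1A was listed at 0 in 3 of the leaves. Markers of other organs summed to at most 1.02 TPM. Summed stomatal lineage markers read 105 and 78.2 TPM in the hairy and 116 and 164 TPM in the glabrous leaves, and vascular markers 64.6, 42.6, 59.9 and 142 TPM in the same order of leaves (hairy 1, hairy 3, glabrous 1, glabrous 3). The part of these cell types in the JAZ results was not tested. In whole leaves, fewer cells of a type and less RNA per cell cannot be told apart. GL2, a homeobox gene of growing trichomes, summed to 3.52 and 3.99 TPM in the hairy and 0.152 and 1.16 TPM in the glabrous leaves, and its sum was not called (log2 change 1.59, limma adjusted p = 0.182). The 5 trichome markers including GL2 summed to 38.5, 61.3, 26.3 and 36.4 TPM, with none of 10 tested copies called in limma and 2 higher at an unadjusted p under 0.05.

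Most JAZ copies read higher in the hairy leaves. The transcript models matched to a JAZ gene, over all 55 copies, gave 1457 TPM in hairy 1, 1466 TPM in hairy 3, 521 TPM in glabrous 1 and 961 TPM in glabrous 3, a mean 1.97-fold higher in the hairy line. The hairy leaves lay close together and the glabrous leaves apart, and both hairy leaves stood above both glabrous leaves. Sums and totals take the matched models only, while a copy's level takes all models of its gene; this matters for 1 JAZ12 copy, BnaA03g010730.4DH, with which all models of the 55 genes gave 1471, 1474, 529 and 973 TPM in the same order. Of the 42 tested copies, 17 (40.5%) were higher in the hairy line in the limma fit, where 5.24% of all tested genes were, and 4 (9.52%) were lower, where 4.48% of all genes were. In either direction 9.72% of all genes were called. Of the copies called higher, 3 had a glabrous mean under 1 TPM, and of those called lower, 3 had a hairy mean under 1 TPM. These passed the 1 TPM minimum only with leaves of the line where they were high, so their direction follows in part from that minimum. Without the adjustment, 25 copies were higher and 5 lower at a p under 0.05. The 17 copies rose by 1.61 to 4.03 on the log2 scale. The median log2 change over the 42 copies was 1.58, against 0.03 over all tested genes. Both hairy leaves exceeded both glabrous leaves in 28 copies (66.7%), where 21.4% of all tested genes showed that order, and both glabrous leaves exceeded both hairy leaves in 6 (14.3%, against 17.4% of all genes). Leaving out hairy 1 left 8 copies higher, leaving out hairy 3 left 6, and dropping the 1 TPM minimum left 10.

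**Figure D1:**
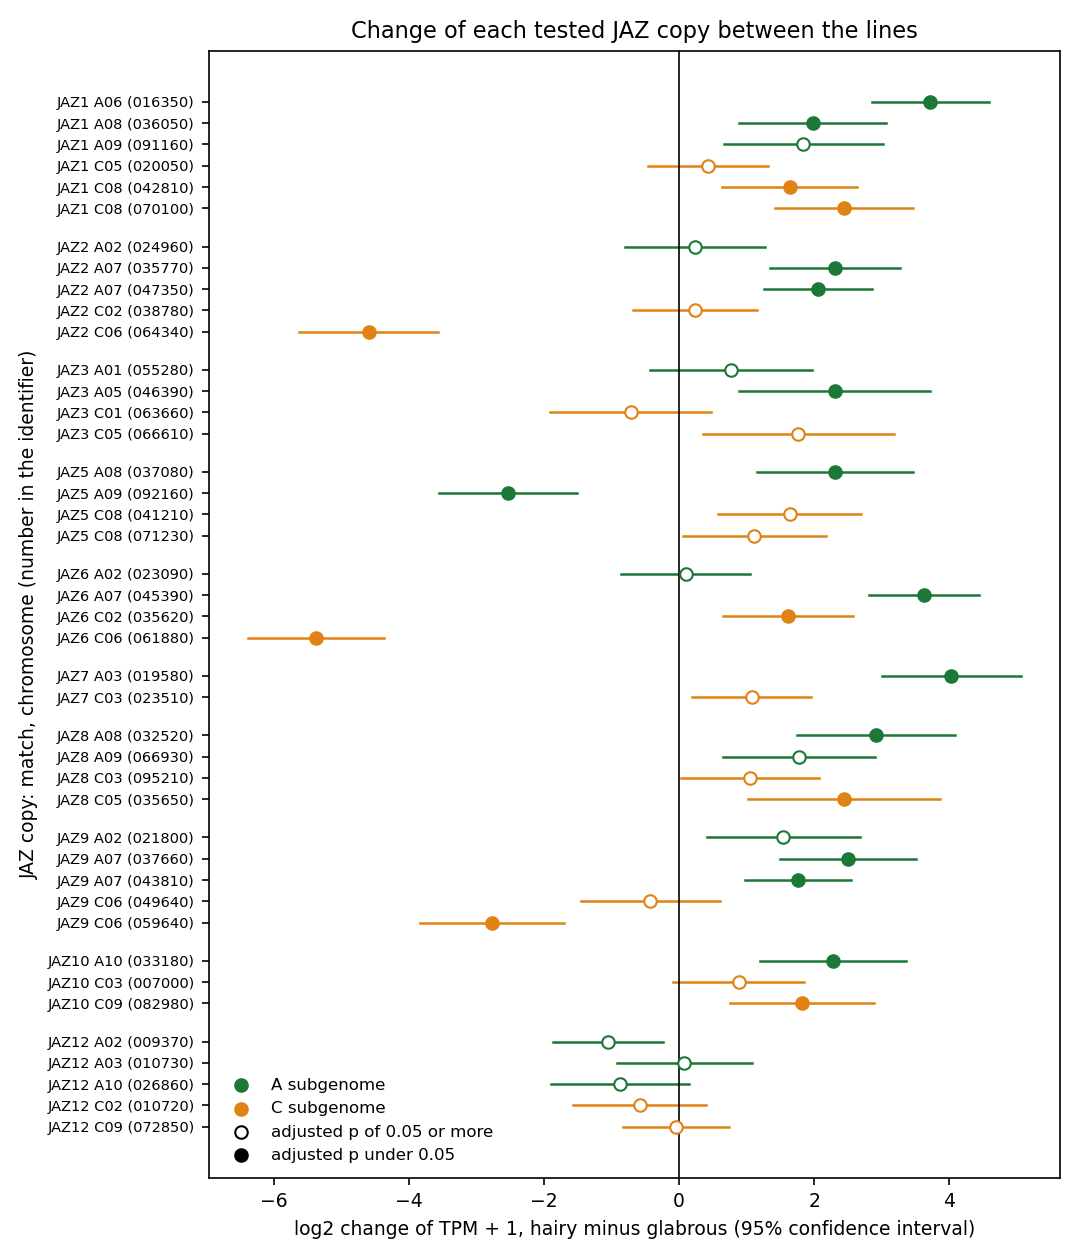
Log2 change of TPM + 1, hairy minus glabrous, with its 95% confidence interval for each of the 42 tested JAZ copies, grouped by Arabidopsis match and coloured by subgenome, with filled points for an adjusted p under 0.05. The 17 filled points on the right lie between 1.61 and 4.03, the 4 filled points on the left are 3 copies on C06 and 1 on A09, and the 5 JAZ12 copies are all open.

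Glabrous 3 read above glabrous 1 in most tested copies. Its level was above that of glabrous 1 in 32 of the 42 tested copies (76.2%), against 70.9% of all tested genes, with a median difference of 0.63 on the log2 scale against 0.39 for all genes. Of the JAZ sums over copies, 8 of 10 were higher in glabrous 3 than in glabrous 1, against 75.3% of all sums. Hairy 3 exceeded hairy 1 in 21 of the 42 copies. The median difference, hairy 3 minus hairy 1, was 0.01 on the log2 scale, against -0.27 for all tested genes.

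Summed over the copies of each Arabidopsis gene, 3 of the 10 JAZ genes passed the threshold as higher in hairy leaves and 0 as lower, where 1.8% of the 15739 tested sums were higher and 0.241% lower (2.04% in either direction). Without the adjustment, 8 were higher and 0 lower at a p under 0.05 in the limma fit. JAZ1 rose from 58.9 and 171 TPM in the glabrous leaves to 410 and 442 TPM in the hairy leaves (log2 change 2.07, SE 0.44, limma adjusted p = 0.023). JAZ7 rose from 13.1 and 22.5 to 55.6 and 79.4 TPM (1.89, SE 0.44, limma adjusted p = 0.0364). JAZ8 rose from 9.36 and 15.5 to 44.0 and 67.6 TPM (2.09, SE 0.46, limma adjusted p = 0.0282). All 3 had hairy leaves above both glabrous leaves and means 3.70 to 4.48-fold higher in the hairy line. The call of JAZ1 ended under the TMM-like and quantile scalings (limma adjusted p = 0.0572 and 0.072). All 3 calls ended with no 1 TPM minimum (limma adjusted p = 0.105, 0.101 and 0.0837 for JAZ1, JAZ7 and JAZ8) and without variance trend and robust shrinkage (limma adjusted p = 0.11, 0.0884 and 0.058). Without hairy 3 none of the 3 sums was called (limma adjusted p = 0.0763, 0.815 and 0.763 for JAZ1, JAZ7 and JAZ8). Without hairy 1 only JAZ1 was (0.151 and 0.125 in limma for JAZ7 and JAZ8), without glabrous 1 JAZ7 was not (limma adjusted p = 0.0685), and without glabrous 3 the called sums numbered 7.

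The other 7 sums did not pass the threshold. JAZ5 read 111, 107, 19.3 and 56.7 TPM in hairy 1, hairy 3, glabrous 1 and glabrous 3, the order used for 4 values throughout (log2 change 1.68, interval 0.71 to 2.66, limma adjusted p = 0.0869). JAZ10 read 28.1, 23.8, 8.71 and 4.61 TPM (1.86, interval 0.78 to 2.95, adjusted p = 0.0889 in limma). For both, the hairy leaves were above the glabrous leaves. JAZ2, JAZ6 and JAZ9 had log2 changes of 1.03, 1.02 and 1.03, with limma adjusted p of 0.211, 0.305 and 0.293, again with no overlap between the lines. JAZ3 was the sum whose lines overlapped, at 68.2, 33.7, 14.6 and 53.2 TPM. JAZ12 was the sum with both glabrous leaves highest, at 135, 121, 153 and 282 TPM (-0.69, interval -1.49 to 0.11, limma adjusted p = 0.801). The sums with both hairy leaves above numbered 8 of 10, where 17% of all sums showed that order, and 12.4% of all sums showed the reverse. The median log2 change of the 10 sums was 1.36, against 0.02 over all sums.

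By level, JAZ1 came first in the hairy and JAZ12 in the glabrous leaves. In the hairy leaves JAZ1 had a mean of 426 TPM, followed by JAZ6 with 318 and JAZ2 with 152 TPM, and no leaf of these overlapped its neighbour in the order. JAZ12 and JAZ9 came next at 128 TPM each and overlapped, then JAZ5 at 109 TPM, and JAZ7, JAZ8 and JAZ3 at 67.5, 55.8 and 50.9 TPM, which overlapped with each other in turn. JAZ10 was lowest in both lines, at 25.9 and 6.66 TPM. In the glabrous leaves JAZ12 had the highest mean, 217 TPM, ahead of JAZ6 at 162, JAZ1 at 115 and JAZ2 at 73.5 TPM, but each neighbour in that order overlapped the next down to JAZ8. These orders are descriptions of 2 leaves per line and were not tested.

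**Figure D2:**
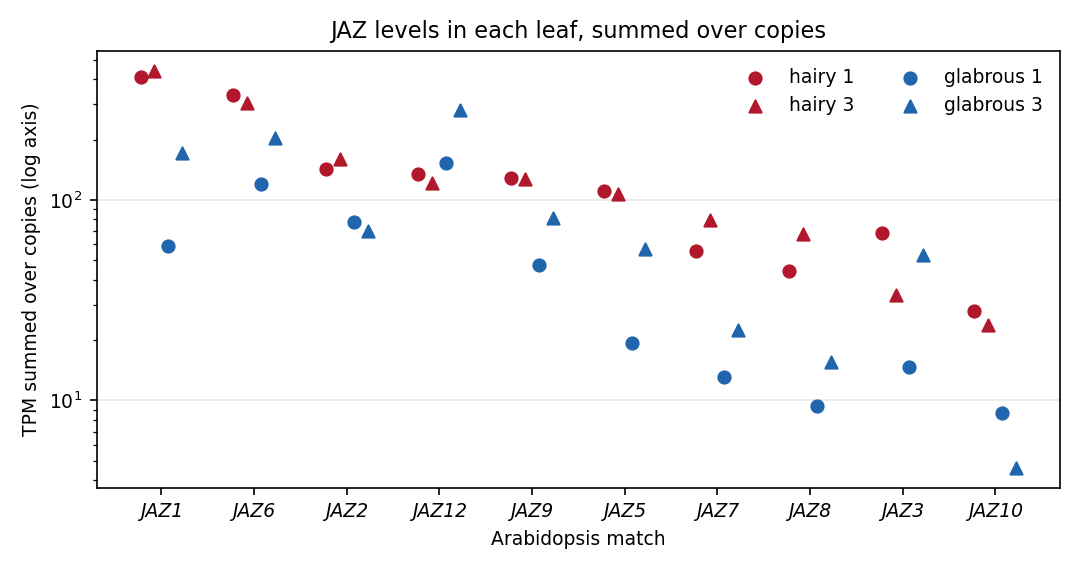
Summed TPM (log axis) of each JAZ gene over its copies in every leaf, ordered by the hairy mean, with red points for hairy and blue points for glabrous leaves. The 2 hairy points lie above both blue points in 8 genes, JAZ3 overlaps, and JAZ12 has its blue points highest, at 153 and 282 TPM.

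The clade of JAZ1, JAZ2, JAZ5 and JAZ6 supplied most of the transcripts. Its 24 copies made up 68.4% and 69.1% of all JAZ TPM in the hairy and 52.8% and 52.3% in the glabrous leaves, and 9 of its 19 tested copies were higher and 3 lower. JAZ1, which binds MYC2 and COI1 and was among the first JAZ proteins described, had 4 of 6 tested copies called higher. BnaA06g016350.4DH on A06 read 50.0 and 56.8 TPM in the hairy and 2.89 and 3.37 TPM in the glabrous leaves, a 17.1-fold higher mean (log2 change 3.72, limma adjusted p = 9.65e-05). BnaC08g070100.4DH read 93.2, 72.9, 8.27 and 24.5 TPM (5.06-fold, log2 change 2.44, limma adjusted p = 0.00455). Both kept their call in all 13 alternatives. The JAZ1 copy with the highest mean in both lines, BnaC08g042810.4DH, read 123, 152, 27.2 and 68.3 TPM (2.88-fold, log2 change 1.64, limma adjusted p = 0.0424), and BnaA08g036050.4DH read 82.3, 106, 12.4 and 41.9 TPM (3.46-fold, 1.98, limma adjusted p = 0.0245). These 2 copies also had no overlap between the lines, but BnaC08g042810.4DH lost its call in 8 of the 13 alternatives and BnaA08g036050.4DH in 6. Both lost it without hairy 1, hairy 3 or glabrous 1, under quantile normalization, with no 1 TPM minimum, and without variance trend and robust shrinkage. BnaC08g042810.4DH also lost it under the TMM-like scaling and with a replicate block. Their log2 changes over the alternatives were 0.99 to 2.29 and 1.13 to 2.82. BnaA09g091160.4DH read 60.5, 53.2, 7.17 and 30.9 TPM and stood just outside the threshold (1.84, interval 0.67 to 3.01, limma adjusted p = 0.052). The remaining JAZ1 copies, both on C05, stayed at or under 1.59 TPM.

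JAZ5 and JAZ6 are close relatives of JAZ1 and JAZ2. The main JAZ5 copy, BnaA08g037080.4DH, read 63.8 and 69.0 TPM in the hairy and 6.05 and 25.4 TPM in the glabrous leaves (4.23-fold, log2 change 2.31, limma adjusted p = 0.014). Its call ended in 2 of the 13 alternatives, without hairy 3 and with no 1 TPM minimum. The 2 C08 copies of JAZ5 pointed the same way without passing: BnaC08g041210.4DH read 17.6, 22.0, 3.41 and 9.05 TPM (limma adjusted p = 0.0578) and BnaC08g071230.4DH read 28.5, 15.5, 5.99 and 13.9 TPM (limma adjusted p = 0.248). An A09 copy went the other way: BnaA09g092160.4DH fell, with 0.119 and 0 TPM in the hairy and 3.37 and 7.56 TPM in the glabrous leaves (-2.53, limma adjusted p = 0.00363). Its call ended without hairy 3 (limma adjusted p = 0.0678). At these levels it added little to the JAZ5 sum.

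JAZ6 held the largest opposed differences between copies of one JAZ gene. BnaA07g045390.4DH read 149 and 151 TPM in the hairy and 8.94 and 14.1 TPM in the glabrous leaves, 13.0-fold higher in the mean (log2 change 3.62, limma adjusted p = 7.45e-05), and had the highest hairy mean of the JAZ copies, although JAZ1 BnaC08g042810.4DH overlapped it with 152 TPM in hairy 3. BnaC06g061880.4DH read 0.514 and 0.0667 TPM in the hairy and 51.9 and 51.3 TPM in the glabrous leaves, 178-fold lower in the hairy mean (-5.37, limma adjusted p = 2.56e-05). Each was called under all 13 alternatives. Away from A07 and C06, BnaC02g035620.4DH rose, from 22.2 and 52.6 to 119 and 95.2 TPM (1.61, limma adjusted p = 0.0384). Its call ended in 7 of the 13 alternatives. These were the fits without hairy 1, hairy 3 or glabrous 1, both other scalings, no 1 TPM minimum, and no variance trend or robust shrinkage. BnaA02g023090.4DH read 63.2, 57.6, 36.7 and 86.2 TPM with overlapping lines (0.10, interval -0.85 to 1.05, limma adjusted p = 0.9998).

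JAZ2, which acts in stomatal guard cells in Arabidopsis, had the same arrangement. BnaA07g047350.4DH rose from 31.8 and 26.8 TPM in the glabrous leaves to 117 and 133 TPM in the hairy leaves (4.25-fold, log2 change 2.05, limma adjusted p = 0.00277; 0.0645 without hairy 3). BnaC06g064340.4DH was listed at 0 in both hairy leaves and read 23.6 and 22.7 TPM in the glabrous leaves (limma adjusted p = 7.32e-05; the fitted log2 change of -4.60 depends on the added 1 TPM). A second C06 copy, BnaC06g046070.4DH, was also listed at 0 in both hairy leaves and read 0.848 and 3.23 TPM in the glabrous leaves, and was not tested because only 1 leaf reached 1 TPM. The weaker A07 copy BnaA07g035770.4DH read 4.82, 6.00, 0.195 and 0.382 TPM (2.31, limma adjusted p = 0.00452). The A02 and C02 copies of JAZ2 lay between 5.55 and 11.99 TPM in all leaves, with log2 changes of 0.23 each (intervals -0.81 to 1.27 and -0.69 to 1.15).

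JAZ3 and JAZ9 belong to another clade, in which 3 of 9 tested copies were higher and 1 lower. JAZ3 is the gene behind the jasmonate-insensitive mutant jai3 of Arabidopsis, and JAZ9 is a close relative. JAZ9 again had opposed called copies on A07 and C06, while a second C06 copy was not called. BnaA07g043810.4DH rose from 21.7 and 28.8 TPM to 91.2 and 83.2 TPM (3.45-fold, log2 change 1.76, limma adjusted p = 0.0072). BnaA07g037660.4DH rose from 1.98 and 2.01 TPM to 14.8 and 17.0 TPM (8.00-fold, 2.50, limma adjusted p = 0.00359). BnaC06g059640.4DH fell, with 3.44 and 2.37 TPM in the hairy and 17.4 and 36.9 TPM in the glabrous leaves (9.35-fold lower, -2.77, limma adjusted p = 0.00263). The A07 calls ended when either hairy leaf was left out (limma adjusted p up to 0.0897 and 0.0963), and the C06 call held in all 13 alternatives. The second C06 copy, BnaC06g049640.4DH, read 1.14, 2.40, 3.05 and 2.24 TPM with overlapping lines (-0.43, interval -1.45 to 0.60, limma adjusted p = 0.898). In RefSeq, BnaA07g037660.4DH matched the same C06 gene as this copy, so its place on A07 rests on its identifier. The A02 copy of JAZ9, BnaA02g021800.4DH, read 17.6, 20.8, 3.11 and 10.6 TPM (1.54, interval 0.41 to 2.68, limma adjusted p = 0.101).

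Among the JAZ3 copies, leaves of the same line lay far apart. BnaA05g046390.4DH read 20.3, 11.04, 0.589 and 5.66 TPM and was called (log2 change 2.30, limma adjusted p = 0.0436). Its call ended in 6 of the 13 alternatives. These were the fits without hairy 1, hairy 3 or glabrous 1, no 1 TPM minimum, a filter of 5 TPM, and no variance trend or robust shrinkage. BnaC05g066610.4DH read 18.1, 7.51, 0.962 and 6.22 TPM and was not called (1.76, interval 0.35 to 3.17, limma adjusted p = 0.142). BnaA01g055280.4DH and BnaC01g063660.4DH overlapped between the lines, at 16.2, 7.51, 3.61 and 10.0 TPM and at 13.5, 7.60, 9.47 and 31.3 TPM.

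JAZ7 and JAZ8 lack the usual degron and, in Arabidopsis, JAZ8 binds TOPLESS through its own EAR motif and resists degradation. All 6 tested copies of these genes had hairy leaves above glabrous leaves, and 3 were called higher. The A03 copy of JAZ7, BnaA03g019580.4DH, had the largest rise of any JAZ copy: it read 23.9 and 37.6 TPM in the hairy and 0.977 and 0.82 TPM in the glabrous leaves (34.2-fold, log2 change 4.03, limma adjusted p = 0.000181) and was called in all 13 alternatives. Its C03 counterpart BnaC03g023510.4DH was at 29.9, 41.4, 12.2 and 21.4 TPM (1.08, interval 0.19 to 1.96, limma adjusted p = 0.154). Both hairy leaves were above both glabrous leaves for either copy, and the ratio of the copies is tested with the relative levels. For JAZ8, BnaA08g032520.4DH read 9.04, 12.2, 0 and 1.33 TPM (2.91, limma adjusted p = 0.00346) and was called in all 13 alternatives. BnaC05g035650.4DH read 15.6, 23.6, 0.715 and 7.09 TPM (2.44, limma adjusted p = 0.0329), and its call ended in 6 alternatives. These were the fits without hairy 1, hairy 3 or glabrous 1, no 1 TPM minimum, no variance trend or robust shrinkage, and a crossed pairing of leaves. BnaA09g066930.4DH, at 8.83, 22.1, 3.19 and 3.65 TPM, was just outside the threshold (1.77, limma adjusted p = 0.0517). BnaC03g095210.4DH, at 10.5, 9.70, 5.45 and 3.46 TPM, was not called either (1.05, limma adjusted p = 0.265). Of the 4 other JAZ7 copies, 2 were listed at 0 in every leaf and none exceeded 1.07 TPM.

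JAZ10 is strongly induced by jasmonate in Arabidopsis and is spliced into forms that resist degradation. It was the least abundant JAZ gene, and 2 of its 3 tested copies were higher. BnaA10g033180.4DH rose from 3.26 and 1.32 TPM to 13.8 and 14.7 TPM (6.23-fold, log2 change 2.28, limma adjusted p = 0.0102). BnaC09g082980.4DH rose from 2.04 and 1.197 TPM to 9.83 and 6.69 TPM (5.10-fold, 1.82, limma adjusted p = 0.0344). The lines did not overlap for either, but the first call was lost without hairy 1 or hairy 3 (limma adjusted p = 0.108 and 0.142). The second was lost in 5 of the 13 alternatives. These were the fits without hairy 1, hairy 3 or glabrous 3, a replicate block, and no 1 TPM minimum. BnaC03g007000.4DH read 2.51, 1.74, 1.17 and 0.304 TPM (0.88, interval -0.08 to 1.84, limma adjusted p = 0.361).

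JAZ12, whose stability in Arabidopsis depends on the ubiquitin ligase KEG, was the JAZ gene with no copy called among its 5, and 1 passed an unadjusted p under 0.05 in the limma fit. That copy, BnaA02g009370.4DH, read 29.3 and 30.4 TPM in the hairy and 50.6 and 78.9 TPM in the glabrous leaves (log2 change -1.06, interval -1.87 to -0.24, limma adjusted p = 0.121). BnaA10g026860.4DH read 52.0, 37.9, 50.3 and 135 TPM (-0.88, interval -1.90 to 0.15), and the lines overlapped. Without glabrous 1, these 2 copies were called lower (limma adjusted p = 0.0399 and 0.019). BnaC09g072850.4DH read 47.4, 44.4, 42.5 and 53.1 TPM, and its difference had an interval of -0.83 to 0.73. BnaC02g010720.4DH read 6.68, 8.35, 9.19 and 14.8 TPM (interval -1.57 to 0.40). The gene BnaA03g010730.4DH, at 13.6, 8.49, 8.02 and 12.8 TPM, is a JAZ12 copy by the rule only: its JAZ12-matched transcript model read at most 0.163 TPM, and the rest came from its other models. JAZ12 therefore made up 9.29% and 8.27% of all JAZ TPM in the hairy leaves and 29.3% in each glabrous leaf.

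The 13 untested copies were low everywhere, and none exceeded 3.23 TPM. Besides the JAZ7 copies and BnaC06g046070.4DH they were JAZ1 BnaC05g056010.4DH, JAZ5 BnaA06g014350.4DH, BnaA09g092152.4DH and BnaC05g017820.4DH, JAZ9 BnaC02g033130.4DH, and JAZ10 BnaA02g004580.4DH, BnaA03g006310.4DH and BnaC02g004000.4DH. Of the 2 that were listed at 0 in both hairy leaves and above 0 in both glabrous leaves, BnaA03g006310.4DH read 0.965 and 0.709 TPM in the latter. The other was the C06 copy of JAZ2.

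Copies of the same JAZ gene often differed in how far they stood from the other line. The level of each copy relative to the summed level of the other copies of its gene was therefore compared between the lines. This relative level differed for 17 of 42 copies (40.5%), 9 higher and 8 lower in the hairy line, where 16.8% of the 41755 copies tested in this way differed (8.03% higher, 8.78% lower). A copy that rises relative to the others lowers theirs, so the 17 are not separate differences. For JAZ7 the A03 and C03 copies gave nearly the same ratio in reverse (relative log2 changes of 2.91 and -2.91). The relatively higher copies were JAZ2 BnaA07g035770.4DH and BnaA07g047350.4DH, JAZ3 BnaA05g046390.4DH and BnaC05g066610.4DH, JAZ5 BnaA08g037080.4DH, JAZ6 BnaA07g045390.4DH, JAZ7 BnaA03g019580.4DH, and JAZ9 BnaA07g037660.4DH and BnaA07g043810.4DH. The relatively lower ones were JAZ2 BnaC06g064340.4DH, JAZ3 BnaC01g063660.4DH, JAZ5 BnaA09g092160.4DH, JAZ6 BnaA02g023090.4DH and BnaC06g061880.4DH, JAZ7 BnaC03g023510.4DH, JAZ9 BnaC06g059640.4DH and JAZ10 BnaC03g007000.4DH. A relative level is a ratio, so a copy can be relatively lower without a call of its own, as the C03 copy of JAZ7 was (relative log2 change -2.91, limma adjusted p = 0.00215). For JAZ1, none of the 6 copies differed in relative level at an adjusted p under 0.05 in limma, and the closest was BnaA06g016350.4DH (1.79, limma adjusted p = 0.0529). Without hairy 1, and likewise without hairy 3, 4 copies were relatively higher.

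Among the tested JAZ copies, more A than C copies were called higher. The shares called over all tested A genes and all tested C genes are not given here, so these counts have no background by subgenome. The 28 A copies summed to 899 and 937 TPM in the hairy and 263 and 522 TPM in the glabrous leaves, and 12 of 22 tested copies were higher and 1 lower. The 27 C copies summed to 558, 529, 258 and 439 TPM, and 5 of 20 were higher and 3 lower. The C share of all JAZ TPM was 38.3% and 36.1% in the hairy and 49.5% and 45.7% in the glabrous leaves. This difference in share was not tested.

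The 3 called-lower C06 copies and the A07 copies of JAZ9, JAZ6 and JAZ2 form 3 pairs by chromosome, picked after their values were seen. For JAZ9 and JAZ2, which have 2 copies on each of these chromosomes, the pair takes BnaA07g043810.4DH with BnaC06g059640.4DH and BnaA07g047350.4DH with BnaC06g064340.4DH, and leaves out the copies at lower levels. Adding the A07 and C06 copies of a pair, JAZ6 read 149.9 and 151 TPM in the hairy and 60.9 and 65.5 TPM in the glabrous leaves. JAZ2 read 117 and 133 TPM against 55.5 and 49.6 TPM, and JAZ9 read 94.7 and 85.6 TPM against 39.1 and 65.7 TPM. In each pair the hairy sum stayed above the glabrous sum, by 2.38, 2.38 and 1.72-fold, while the C06 copy gave at most 3.44 TPM of it in the hairy line. In the glabrous line the C06 copy gave the larger part for JAZ6 in both leaves and for JAZ9 in glabrous 3.

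**Figure D3:**
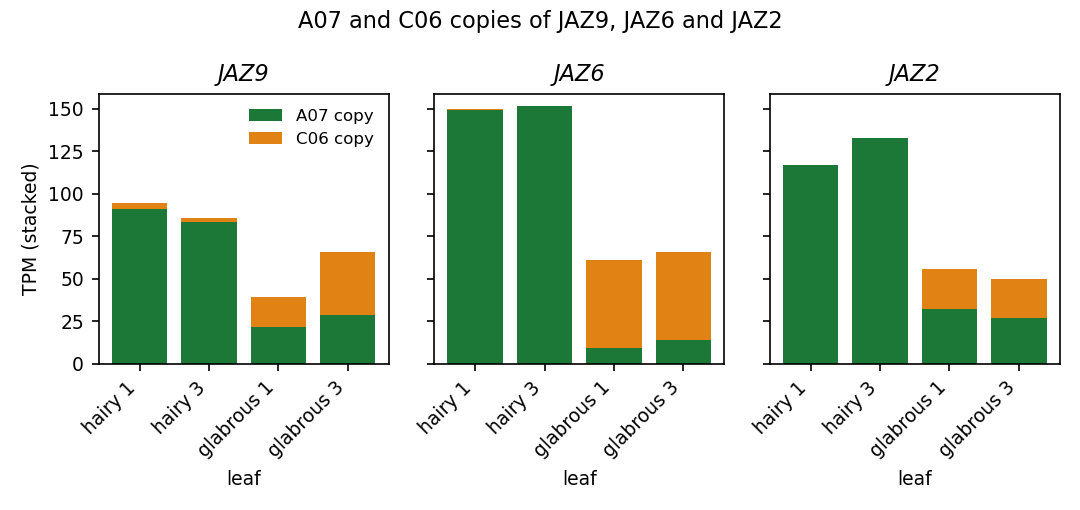
TPM of the paired A07 copy (green) and C06 copy (orange) of JAZ9, JAZ6 and JAZ2, stacked for each leaf. The orange part is at most 3.44 TPM in the hairy leaves, and the stacked hairy level exceeds the stacked glabrous level in all 3 genes, for example 149.9 and 151 against 60.9 and 65.5 TPM for JAZ6.

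The genes next to each called JAZ copy were read in the same fit, taking the 10 tested genes before and 10 after it by identifier. Around the C06 copies of JAZ9, JAZ6 and JAZ2, 18, 19 and 18 of the 20 neighbours were lower in the hairy line, and 18, 19 and 19 had a hairy mean under 1 TPM. Around the 5 called A07 copies, 2 to 6 of 20 neighbours were higher and none lower in the limma fit, with median log2 changes of 0.57 to 1.14. The tested genes around the C06 copies were thus mostly low in the hairy line. A neighbour with a hairy mean under 1 TPM needed glabrous leaves to pass the 1 TPM minimum, so its direction follows in part from that minimum. Genes low in both lines were skipped, and the share of all tested genes with such a hairy mean is not given here. Of the 20 neighbours of the JAZ5 copy that fell, BnaA09g092160.4DH, 8 were higher and none lower. All 8 came after it by identifier, with log2 changes of 2.06 to 4.36. Of its 20 neighbours, 10 had a glabrous mean under 1 TPM and needed hairy leaves to pass the 1 TPM minimum. Around the copies of JAZ7 on A03, JAZ3 on A05, JAZ8 on C05 and JAZ10 on C09, no neighbour was called, and their median log2 changes lay between -0.09 and 0.16. Around JAZ1 BnaA06g016350.4DH and BnaC08g070100.4DH, 3 and 1 of 20 neighbours were higher and none lower. Their medians of 0.71 and 0.72 lay within the range of the A07 copies, and 5 and 2 of them had a glabrous mean under 1 TPM. Around the remaining called copies the medians lay between -0.08 and 0.33. Over all 21 called copies, 35 of 420 neighbours were higher and 56 lower (8.33% and 13.3%, against 5.24% and 4.48% of all tested genes), and 55 of the 56 stood around the 3 C06 copies. Without hairy 1, 18 were higher, and without hairy 3, 21 were higher and 36 lower.

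**Figure D4:**
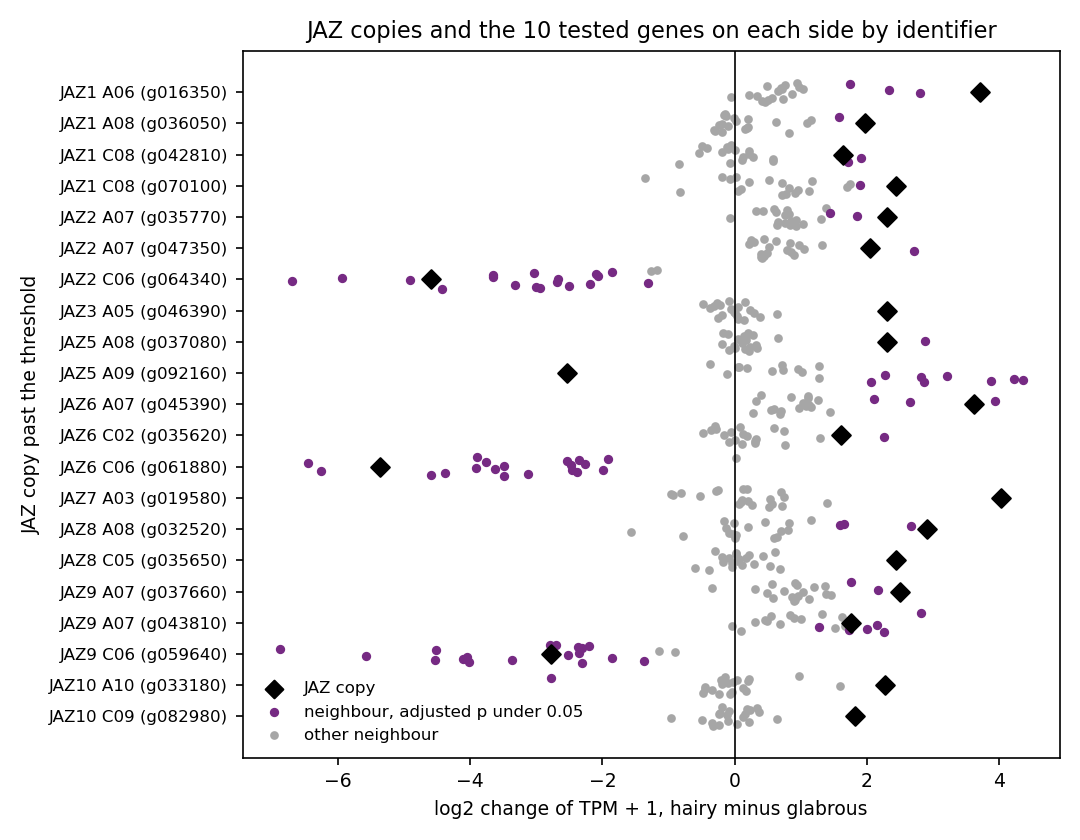
Log2 change of TPM + 1, hairy minus glabrous, of each called JAZ copy (black diamond, named by match, chromosome and number in the identifier) and of the 10 tested genes on each side (points, purple for an adjusted p under 0.05). The neighbours of the 3 C06 copies lie on the left, with 18 to 19 of 20 called, while those of JAZ7 on A03 are spread around 0 with none called.

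Several JAZ genes were listed with more than 1 transcript model, 73 models over the 55 genes, of which 17 genes had several. JAZ10 BnaC09g082980.4DH had a second model at 4.80 and 4.13 TPM in the hairy leaves that was listed at 0 in both glabrous leaves, while its first model read 5.03, 2.56, 2.04 and 1.197 TPM. The second model thus gave 48.8% and 61.7% of the copy's level in the hairy leaves. In JAZ6 BnaA07g045390.4DH the second model gave 81.8% to 94.2% in every leaf, so both lines used the same main model. Other splits varied between leaves of one line: in JAZ6 BnaC06g061880.4DH the first model gave 95.1% in glabrous 1 and 46.3% in glabrous 3, and in JAZ9 BnaA02g021800.4DH it gave 71.8% in hairy 1 and 0% in hairy 3. In the authors' deposited table, whose test is not stated, 66 JAZ transcripts had a p-value, and 12 of them passed a false discovery rate of 0.05 as higher and 6 as lower in hairy leaves, where 2% and 2.04% of all transcripts with a p-value were. No JAZ3, JAZ8 or JAZ10 transcript passed there. Copies called higher in limma without a passing transcript were BnaA05g046390.4DH, BnaA08g032520.4DH, BnaA10g033180.4DH, BnaC05g035650.4DH, BnaC08g042810.4DH and BnaC09g082980.4DH.

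The other genes of the jasmonate pathway were counted in lists written from general knowledge, with earlier results of these data known. Of the 157 tested copies in 7 lists beside the JAZ genes, 40 were higher and 10 lower in the limma fit (25.5% and 6.37%, against 5.24% and 4.48% of all tested genes, the shares with which the counts of each list below compare). Without hairy 1, 19 were higher, without hairy 3, 23 were, and without glabrous 1, 18 were lower. The median log2 changes below compare with 0.03 over all tested genes. Of the copies named below by identifier, those of ACX1, LOX2, ASK1, JAM3, MYC4 and CML38 read under 1 TPM in both hairy leaves. Those of IAR3, TAT3 and WRKY40 (on A07) read under 1 TPM in both glabrous leaves. These copies passed the 1 TPM minimum only through the line where they were high, so their direction follows in part from that minimum. The counts include such copies.

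Genes that make jasmonate had calls in both directions. Of 34 tested copies of synthesis genes, 9 were higher (26.5%) and 3 lower (8.82%), with a median log2 change of 0.97. The sums of OPCL1, a ligase that prepares jasmonate precursors for beta-oxidation, and AOC3, an allene oxide cyclase, rose. OPCL1 read 219, 158, 25.9 and 62.4 TPM (2.18, limma adjusted p = 0.0121) and AOC3 read 54.7, 88.6, 9.96 and 25.1 TPM (2.06, limma adjusted p = 0.0392). The sum of AOS, which makes the allene oxide, was not called, at 84.4, 45.1, 21.7 and 44.2 TPM (0.97, limma adjusted p = 0.613). LOX2, a chloroplast lipoxygenase, overlapped widely at 202, 92.8, 64.3 and 436 TPM (-0.29, interval -2.63 to 2.04). The sums of LOX3 and LOX4 had both hairy leaves above both glabrous leaves but were not called (1.95 and 2.35, limma adjusted p = 0.194 and 0.0507). The LOX6 sum overlapped (0.48). Among the copies, OPCL1 BnaA08g035440.4DH rose (2.23, limma adjusted p = 0.00654), while ACX1 BnaC01g029510.4DH (-4.51, limma adjusted p = 0.000132) and LOX2 BnaC06g052000.4DH (-2.60, limma adjusted p = 0.00391) fell.

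Genes that break jasmonate down had calls in 1 direction. Of 12 tested copies of turnover genes, 6 were higher (50%) and 0 lower in the limma fit (8 and 0 at an unadjusted p under 0.05), with a median of 1.41. CYP94B3, a P450 that hydroxylates jasmonoyl-isoleucine, rose from 1.93 and 5.97 TPM to 44.5 and 35.97 TPM summed over copies (3.18, limma adjusted p = 0.00478), through BnaC08g047950.4DH and BnaA06g020720.4DH (3.05 and 2.88). ST2A, a sulfotransferase of hydroxyjasmonate, was listed at 0 in both glabrous leaves and read 2.97 and 3.01 TPM in the hairy leaves (limma adjusted p = 0.0357). Its sum passed the 1 TPM minimum through the hairy leaves only. A copy of IAR3, an amidohydrolase that cleaves jasmonoyl-isoleucine, rose (BnaA06g002560.4DH, 2.77, limma adjusted p = 0.00244), while its sum was not called, at 46.5, 29.4, 17.6 and 33.1 TPM.

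The partners of the JAZ proteins had few calls. Of 25 tested copies of the receptor and corepressor genes, 0 were higher and 1 lower in the limma fit (1 and 1 at an unadjusted p under 0.05), with a median of 0.05. The copy that fell was ASK1 BnaC06g065240.4DH (-6.71, limma adjusted p = 4.29e-06), of an adaptor of the ubiquitin ligase, while the ASK1 sum was not called (-0.14). COI1 read 40.7, 34.3, 23.3 and 45.8 TPM (0.19, interval -0.75 to 1.13) and NINJA 129, 76.6, 81.0 and 136 TPM (-0.08, interval -0.92 to 0.75). Of 25 tested copies of the transcription factors that JAZ proteins bind, 0 were higher and 2 lower in limma (3 and 2 at an unadjusted p under 0.05), with a median of 0.17. MYC2 summed to 136, 80.1, 38.4 and 149 TPM (0.45, interval -0.64 to 1.55). The copies that fell were JAM3 BnaC01g030650.4DH, listed at 0 in both hairy leaves, and MYC4 BnaA01g010360.4DH (-1.99, limma adjusted p = 0.03). The trichome complex list held GL1, GL3, EGL3, TT8 and MYB75. Its 9 tested copies gave 0 calls in limma and 0 at an unadjusted p under 0.05, with a median of 0.23. The MYB75 sum had both glabrous leaves above, at 2.65, 2.47, 3.02 and 26.3 TPM (-1.56, limma unadjusted p = 0.0486, adjusted p = 0.6). The TT8 sum had both hairy leaves above, at 5.43, 3.60, 2.30 and 1.38 TPM (0.96, limma adjusted p = 0.788). GL1 summed to 1.82, 3.94, 2.61 and 2.66 TPM, GL3 to 10.0, 5.86, 5.599 and 8.95 TPM, and EGL3 to 25.3, 15.2, 11.5 and 23.3 TPM, with intervals of -1.07 to 1.14, -1.06 to 1.26 and -0.84 to 1.33 on the log2 scale.

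Late jasmonate outputs were mostly low. Of 34 copies, 8 were tested, and 2 were higher and 0 lower in the limma fit (2 and 1 at an unadjusted p under 0.05). Those 2 were TAT3 BnaC03g034530.4DH, a tyrosine aminotransferase gene (4.22, 2.60, 0 and 0.0794 TPM), and ERF1 BnaC01g056030.4DH (4.70, 6.73, 1.24 and 0.993 TPM). VSP2, a vegetative storage protein, read 0.928, 2.48, 0.977 and 48.3 TPM, so that nearly all of it came from glabrous 3. PDF1.2a was listed at 0 in every leaf, as were the 5 copies of JAZ13.

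Genes that answer touch and wounding within minutes had calls in both directions. Of 44 tested copies, 23 were higher (52.3%) and 4 lower (9.09%), with a median log2 change of 1.44. Their summed level was 5735, 7137, 2063 and 3111 TPM. The sums of WRKY40 (581, 681, 56.0 and 109 TPM; 3.00, limma adjusted p = 0.000722), WRKY33 (891, 738, 116 and 168 TPM; 2.53, limma adjusted p = 0.00153) and ERF104 (145, 220, 62.6 and 19.8 TPM; 2.31, limma adjusted p = 0.0168) rose, all genes of transcription factors. The copies WRKY40 BnaA07g033560.4DH (6.29) and WRKY33 BnaA05g007320.4DH (4.01) rose, and CML38 BnaS00025g0540.4DH fell (-4.93, limma adjusted p = 4.81e-05). Any part of handling or wounding of the leaves in the JAZ differences was not tested.

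**Figure D5:**
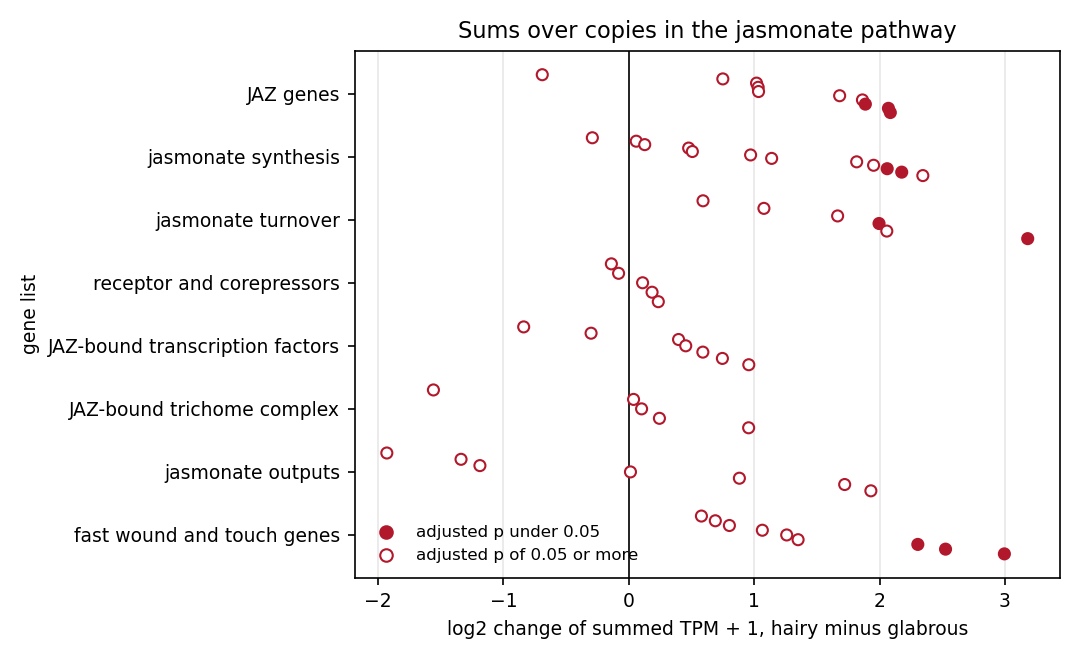
Log2 change of summed TPM + 1, hairy minus glabrous, of each tested Arabidopsis match in the JAZ family and 7 lists of pathway genes, with filled points for an adjusted p under 0.05. Filled points, all on the right, appear among the JAZ genes (3), synthesis (2), turnover (2) and fast wound and touch genes (3), and none among receptor, corepressor, transcription factor, trichome complex and output genes.

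The genes whose summed profile over the 4 leaves was nearest to that of all JAZ copies together, by Euclidean distance of centred log2(TPM + 1) among 13110 Arabidopsis matches, were FLA15 (AT3G52370), AT4G29690, NHL3 (AT5G06320), AT5G52020 and AT3G26700. FLA15, a fasciclin-like arabinogalactan protein gene, read 34.9, 35.9, 11.9 and 22.4 TPM. NHL3 was the most abundant of them, at 687, 692, 255 and 454 TPM. With 4 leaves, such likeness is a description of the same libraries.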

How the data were processed

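The authors deposited a table of TPM per transcript model and leaf, which also holds the larger of their group means (a signal on the TPM scale), a signed fold change (kept as a score), a log2 fold change, and for each transcript a p-value with its FDR-adjusted form. The submitters' processing notes name cutadapt 1.9. For aligner, annotation, genome build and strand setting, the entry is not given in the sources used here. Without read numbers the depth is unknown, and intervals cover the spread between leaves only.

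TPM were summed over all transcript models of a gene for the copies, and over all transcript models with the same Arabidopsis match for the sums and totals. Each gene that reached 1 TPM in 2 or more leaves entered a limma fit of log2(TPM + 1) values (limma 3.58.1, R 4.3.3; trended variance prior, robust shrinkage, Benjamini-Hochberg adjustment). The relative level of a copy is log2(copy + 1) minus log2(sum of the other copies + 1). The method was checked on simulated data. Tables were made with Python 3.11.15, pandas 2.3.3 and numpy 2.4.6. Intervals are 95% confidence intervals from limma. The members, lists and tests were chosen with earlier results of these data known. Genes named were every JAZ copy, at most 3 called copies per pathway or marker list by smallest p, and the sums of MYC2, COI1, NINJA, AOS, LOX2, VSP2, PDF1.2a, GL1, GL3 and EGL3. The 5 genes with a like pattern had a mean of at least 5 TPM. The other sums named, the A07 and C06 pairs, RBCS1A and the transcript splits were chosen after their values were seen. Chromosomes were read from gene identifiers; through RefSeq accessions of the Da-Ae assembly, 38 of the 55 copies matched a gene, 31 of them on the same chromosome, 2 on unplaced sequence and 5 on another. Alternatives were pseudocounts of 0.5 and 2 TPM, no filter, a filter of 5 TPM, 2 other scalings, a replicate block, another variance prior and each leaf left out in turn.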

Additional observations from a re-analysis of the deposited data

How the results depend on the processing

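The 4 lower JAZ copies were 3 to 6 when a leaf was left out, where the lone leaf is assumed to vary like the other line. The median change of all genes moved by less than 0.1 under the other scalings. With no low-value filter, 10 JAZ copies and 0 JAZ sums were higher, as were 26 pathway copies and 22 neighbours of JAZ copies. A filter of 5 TPM gave 1251 lower genes and 31 lower neighbours. Without variance trend and robust shrinkage, 0 JAZ sums were higher. The cause was not tested for any of these settings.

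When each leaf was left out in turn, 1314 to 2740 genes were higher and 977 to 2367 lower, 6 to 21 JAZ copies higher, 0 to 7 JAZ sums higher, and 4 to 12 copies relatively higher. Pathway copies numbered 19 to 48 higher and 7 to 18 lower, and neighbours 18 to 49 higher and 36 to 56 lower. Directions that turned were those of uncalled results: BnaA02g023090.4DH (-0.51 to 0.70, and -0.011 under quantile normalization), BnaA02g024960.4DH (-0.26 to 0.72), BnaC01g063660.4DH (-1.53 to 0.094), BnaA03g010730.4DH (-0.23 to 0.39), BnaC09g072850.4DH (-0.21 to 0.11) and the JAZ3 sum (-0.15 to 1.65).

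Deviations of same-numbered leaves from their line means correlated at r = -0.41 over 44247 genes. All these genes were read in the same few leaves and are not replicates. The correlation therefore cannot show whether leaves with the same replicate number were paired. Blocking on replicate number gave 1834 higher and 1704 lower genes, 16 JAZ copies higher and 4 lower, and 1 JAZ sum, JAZ1, higher (limma adjusted p = 0.234 and 0.193 for JAZ7 and JAZ8). A crossed pairing, added after seeing the data, gave 3921 higher and 3039 lower genes, 23 higher JAZ copies, 8 higher JAZ sums and 72 higher neighbours.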
